A study of Mus musculus with 69 samples.

Results

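Tex40, Pnma5, Grin1, Lgals9 and Fam25c are 5 of the 16263 genes in the mRNA-seq count table of a study of H3.3K27R mouse embryonic stem cells (ESCs), and they were chosen by their read counts, which were much larger in both mutant clones than in wild type. The cells were J1 ESCs of the 129S4/SvJae strain, derived from the inner cell mass of the blastocyst. WT cells had no edit, and the clones Mut18 and Mut43 (H3.3K27R #18 and H3.3K27R #43) carried the lysine 27 to arginine change in both alleles of both genes that encode histone H3.3, H3f3a and H3f3b, introduced with CRISPR-Cas9. Each mutant line is a single clone, both clones were compared with the same WT libraries, and all lines were grown on feeder cells that were removed over the passages before harvest. Each line had 2 mRNA-seq and 2 ATAC-seq libraries, and total counts in mRNA-seq lay between 14992756 and 15143998 per library.

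H3.3 is the histone variant placed into chromatin outside DNA replication, mainly at active genes and enhancers, and lysine 27 of its tail can carry the acetyl mark of active enhancers or the methyl marks of Polycomb repression. An arginine at this position cannot carry these marks. The 5 genes belong to families that are best known outside ESCs. Tex40, now called Catsperz, encodes an auxiliary subunit of CatSper, the calcium channel of the sperm tail. Pnma5 encodes a member of the paraneoplastic Ma antigen family, which derives from the Gag gene of retrotransposons. Grin1 encodes the subunit that every NMDA-type glutamate receptor of neurons needs, and Lgals9 encodes galectin-9, a lectin that binds beta-galactosides on glycoproteins of immune and other cells. Fam25c encodes a small protein of little known function.

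All 5 genes lie on the minus strand, each on a different chromosome of GRCm38 (the build also called mm10). Tex40 (ENSMUSG00000050623.5) spans chr19:6922371-6925380, Pnma5 (ENSMUSG00000050424.9) chrX:73033981-73037103, Grin1 (ENSMUSG00000026959.13) chr2:25291181-25319187, Lgals9 (ENSMUSG00000001123.15) chr11:78962974-78984946 and Fam25c (ENSMUSG00000043681.5) chr14:34351881-34355433. Their exons cover 1262, 3123, 9700, 2137 and 408 bases in that order. The 250 bases before each gene's start, from RefSeq on GRCm38.p6, are printed below because the genes moved in the same direction and because the ATAC-seq data bear on these windows. They lie at chr19:6925381-6925630, chrX:73037104-73037353, chr2:25319188-25319437, chr11:78984925-78985174 and chr14:34355394-34355643, and are read 5′ to 3′ on the minus strand. RefSeq starts Lgals9 22 bases and Fam25c 40 bases inside the spans given above. The last 22 and 40 printed bases of these 2 windows therefore lie within the annotated gene. For the other 3 genes the starts are the same. Capitals mark each CpG.
Tex40: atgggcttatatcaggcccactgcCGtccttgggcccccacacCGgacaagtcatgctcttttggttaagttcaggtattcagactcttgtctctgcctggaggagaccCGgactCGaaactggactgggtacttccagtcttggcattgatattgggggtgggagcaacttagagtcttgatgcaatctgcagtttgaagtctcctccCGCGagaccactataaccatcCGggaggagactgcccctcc
Pnma5: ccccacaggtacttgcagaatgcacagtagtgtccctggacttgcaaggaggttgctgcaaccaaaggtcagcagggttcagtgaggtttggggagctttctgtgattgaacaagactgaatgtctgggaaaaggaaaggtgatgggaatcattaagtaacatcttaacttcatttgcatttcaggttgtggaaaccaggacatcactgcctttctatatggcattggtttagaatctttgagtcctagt
Grin1: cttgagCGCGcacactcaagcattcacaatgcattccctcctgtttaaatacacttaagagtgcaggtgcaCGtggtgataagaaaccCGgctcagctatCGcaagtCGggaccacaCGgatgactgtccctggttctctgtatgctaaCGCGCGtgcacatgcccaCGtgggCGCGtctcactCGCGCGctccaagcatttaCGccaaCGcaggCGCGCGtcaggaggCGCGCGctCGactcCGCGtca
Lgals9: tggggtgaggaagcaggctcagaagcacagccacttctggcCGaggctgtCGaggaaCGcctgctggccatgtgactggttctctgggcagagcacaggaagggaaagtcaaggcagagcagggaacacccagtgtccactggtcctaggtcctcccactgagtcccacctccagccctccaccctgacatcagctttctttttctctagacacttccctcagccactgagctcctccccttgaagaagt
Fam25c: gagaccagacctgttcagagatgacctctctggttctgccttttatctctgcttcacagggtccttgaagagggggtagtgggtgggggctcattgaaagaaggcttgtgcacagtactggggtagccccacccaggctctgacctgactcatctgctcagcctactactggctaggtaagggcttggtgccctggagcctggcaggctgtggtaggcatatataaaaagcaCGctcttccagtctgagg

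The promoters fell into unlike classes of base composition. Grin1 had 27 CpGs, more than 91.4% of the 32851 RefSeq promoters, and a CpG content 1.26 times that given by its C and G content. Pnma5 had 0 CpGs, Fam25c 1, Lgals9 3 and Tex40 7, against a median of 6 over all promoters with quartiles of 2 and 16. Repeats masked in the reference took up between 0.0% and 9.2% of the 5 windows, against a median of 8.4%.

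Short motifs were searched on both strands as exact letters, and none was common to all 5 windows. The TATA box, searched as TATAAA, was found in Fam25c alone, starting 29 bases before the gene start, and is held by 12.4% of all promoters. CCAAT was found in Tex40 and Pnma5, 98 and 27 bases before the start, and is held by 33.8% of promoters. The E-box CACGTG stood in Grin1 at 181 and 85 bases before the start and overlaps the CpGs marked there, against 6.02% of promoters that hold it. The octamer core ATGCAAA stood in Pnma5, 77 bases before the start (4.12% of promoters). The nuclear receptor motif AGGTCA stood in Pnma5 at 185 bases and in Fam25c at 229 and 110 bases before the start (14.0% of promoters). None of the 5 windows held the GC box GGGCGG, found in 32.7% of promoters, or the ends of the REST motif, searched as CAGCACC (5.73% of promoters) and as GGACAGC (5.28%). Lgals9 held none of the 8 motifs.

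Across the whole series, 14061 genes passed the filter on low counts, all 5 of them among these, and the median log2 difference between mutants and WT was -0.00 over all of them. Genes on chromosome 11, where Lgals9 lies, were higher in the mutants with a median log2 difference of 0.39 over 1184 genes, while the medians of chromosomes 19, X, 2 and 14 lay between -0.14 and 0.00. WT replicate 1 stood apart in genes of fat cells. All 7 such genes looked at (Fabp4, Adipoq, Cd36, Car3, Lpl, Cidec and Plin1, chosen after their values were seen) were highest there, by 7.85-fold to 75.3-fold over the next library. Calls that this library decides are therefore also given without it, apart from those of the immune markers. ESC markers were present in every library, and none of 10 changed by more than 2-fold, although 8 were higher (against 23.5% of all tested genes) and 1 lower (24.5%) at an adjusted p under 0.05 (edgeR). Both edited genes stayed within 2-fold of WT.

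The normalized read count, which is the count divided by the library's relative TMM-scaled depth, was higher in all 4 mutant libraries than in both WT libraries for each of the 5 genes. The same held for 29.4% of the 14061 genes. These differences chose the genes and are therefore described without a test.

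Tex40 had 12.7 normalized counts in each WT library, 93.1 and 79.9 for Mut18, and 96.7 and 98.4 for Mut43. The mean was 12.7 ± 0.03 (SD, n = 2) for WT and 92.0 ± 8.38 (SD, n = 4) for the mutants, a log2 difference of 2.84 ± 0.22 (SE) or 7.18-fold. It ranked 1 by log2 difference among the 11387 genes whose mean reached 50 normalized counts in WT or in the mutants. Tex40, Pnma5 and Grin1 reached that level only in the mutants. Ranks by the difference that chose the genes are a description only. The lowest mutant library was far above both WT libraries, and the WT level rests on 13 reads in each.

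Pnma5 had 40.0 and 29.4 normalized counts in WT, 247 and 225 for Mut18, and 180 and 146 for Mut43. Mean levels were 34.7 ± 7.51 (SD, n = 2) for WT and 199.5 ± 45.2 (SD, n = 4) for the mutants, a log2 difference of 2.52 ± 0.21 (SE), rank 3. Both Mut18 libraries lay above both Mut43 libraries. The log2 difference of Mut43 minus Mut18, -0.53, was the largest of the set in size. For Tex40 the clones were separated the other way, with both Mut43 libraries above both Mut18 libraries, at 0.17.

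Grin1 had the lowest counts, 8.79 and 12.7 in WT, 47.1 and 71.8 for Mut18, and 51.9 and 76.1 for Mut43. Mean levels were 10.8 ± 2.80 (SD, n = 2) and 61.7 ± 14.4 (SD, n = 4), a log2 difference of 2.51 ± 0.30 (SE), rank 4. It had the widest error of the 5, from 9 and 13 reads in WT, and in each line replicate 2 was the higher library. With these WT reads, Grin1 passed the filter on low counts only through mutant libraries. The log2 difference was 2.27 without WT replicate 1 and 2.80 without WT replicate 2.

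Lgals9 had 72.3 and 67.6 normalized counts in WT, 418 and 361 for Mut18, and 373 and 389 for Mut43. Mean levels were 69.9 ± 3.27 (SD, n = 2) and 385 ± 24.3 (SD, n = 4), a log2 difference of 2.46 ± 0.11 (SE), rank 5. Relative to the median of chromosome 11, the log2 difference was 2.07.

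Fam25c was the most abundant and the least changed of the 5. Its reads numbered 150 and 178 in WT, 493 and 518 for Mut18, and 513 and 604 for Mut43. Normalized means were 160.5 ± 19.8 (SD, n = 2) for WT and 538 ± 51.8 (SD, n = 4) for the mutants, a log2 difference of 1.74 ± 0.10 (SE) or 3.35-fold. It ranked 40, between Acpp at 1.76 and Tuba3a at 1.73, whereas the other 4 ranked within the first 5, with Gpx2 at 2.66 in place 2 and Pla2g4e at 2.44 in place 6.

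**Figure D1:**
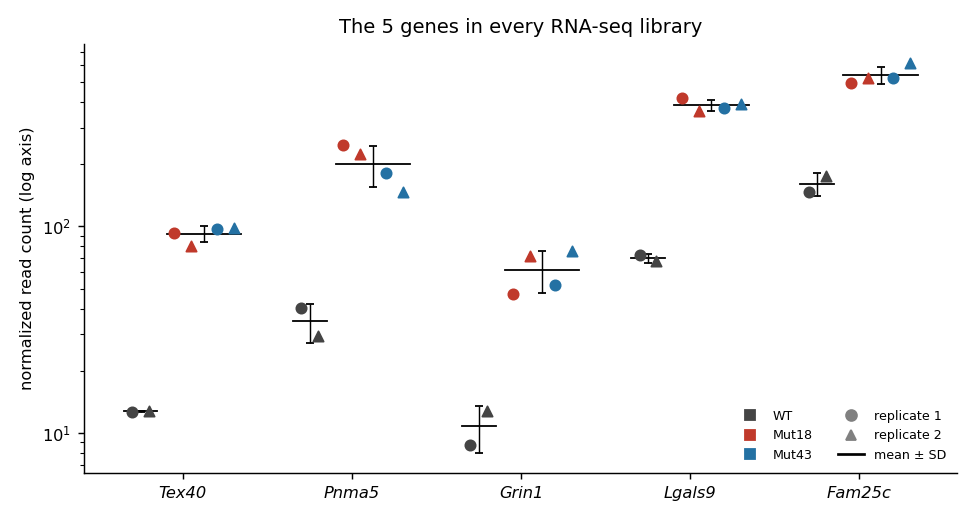
Normalized read count (log axis) of the 5 genes in the 6 mRNA-seq libraries. Circles are replicate 1, triangles replicate 2, colours mark WT, Mut18 and Mut43, and black lines with bars are the mean ± SD of the 2 WT and the 4 mutant libraries. For each gene all mutant libraries lie above both WT libraries, and the Pnma5 values of Mut18 (247 and 225) lie above those of Mut43 (180 and 146).

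Levels scaled to exon length and library depth (RPKM) put the genes on a scale on which their levels can be compared. In WT the order was Fam25c (26.1 ± 3.22), Lgals9 (2.17 ± 0.10), Pnma5 (0.74 ± 0.16), Tex40 (0.67 ± 0.00) and Grin1 (0.07 ± 0.02), all mean ± SD with n = 2. Pnma5, at 0.85 and 0.63, and Tex40, at 0.67 in both libraries, did not differ beyond their spread. In the mutants the order was Fam25c (87.6 ± 8.42), Lgals9 (11.97 ± 0.76), Tex40 (4.84 ± 0.44), Pnma5 (4.24 ± 0.96) and Grin1 (0.42 ± 0.10), with n = 4, and Tex40 and Pnma5 again overlapped. Among all tested genes with a known exon length, Fam25c moved from percentile 85.7 in WT to 96.3 in the mutants, Lgals9 from 34.7 to 70.9, Tex40 from 17.1 to 51.2 and Pnma5 from 18.4 to 48.2. Grin1 moved from 0.62 to 12.8 and thus stayed among the least abundant tested genes in the mutants as well.

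Each clone was then set beside WT. Log2 differences from WT in Mut18 and Mut43 were 2.75 ± 0.24 and 2.93 ± 0.24 for Tex40, 2.45 ± 0.32 and 2.56 ± 0.32 for Grin1, 2.47 ± 0.12 and 2.44 ± 0.12 for Lgals9 and 1.66 ± 0.10 and 1.82 ± 0.10 for Fam25c (± SE). For Pnma5 they were 2.76 ± 0.16 in Mut18 and 2.23 ± 0.17 in Mut43. Both sets of values share the WT libraries.

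The clones were also compared directly with edgeR (quasi-likelihood F-test) and Benjamini-Hochberg adjustment over all 14061 genes, of which 0.327% were called. The 5 genes were chosen for large values in both clones, which itself limits how far the clones could differ in them, so a missing call is no finding. None of the 5 genes was called, and 1 of them had an unadjusted p under 0.05. This was Pnma5, with Mut43 lower than Mut18 by a log2 difference of -0.53 (95% interval -0.79 to -0.27, unadjusted p = 0.000248, edgeR adjusted p = 0.0658). The WT libraries enter this comparison only through the estimate of the spread, and with either left out the log2 difference of Pnma5 stayed at -0.53. With each library left out in turn it lay between -0.69 and -0.39. Whether Pnma5 was called depended on the setting. For the others the intervals of Mut43 minus Mut18 were -0.18 to 0.52 (Tex40), -0.38 to 0.59 (Grin1), -0.21 to 0.15 (Lgals9) and -0.02 to 0.34 (Fam25c), with edgeR adjusted p from 0.659 to 0.963.

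**Figure D2:**
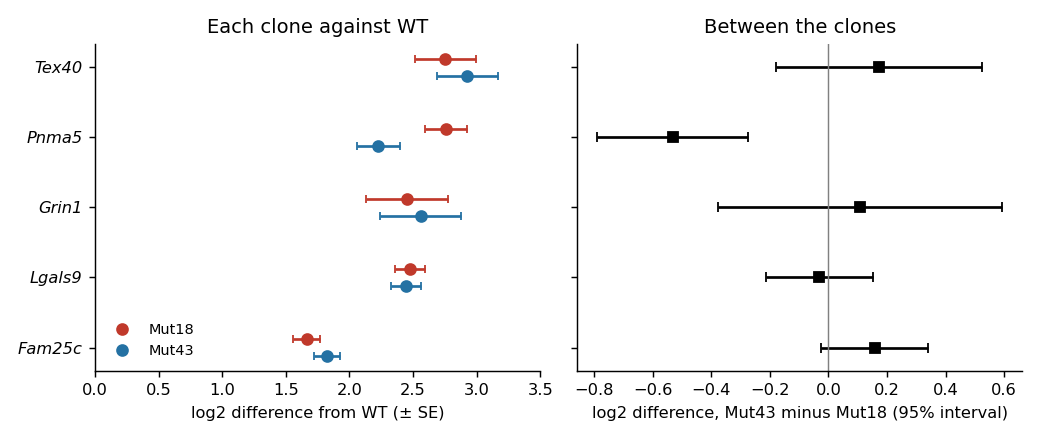
Left, log2 difference of each clone from WT (± SE) for the 5 genes. Right, log2 difference of Mut43 minus Mut18 with its 95% interval. Only the interval of Pnma5 (-0.79 to -0.27) does not include 0, and its adjusted p over all genes was 0.0658.

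ATAC-seq peaks mark chromatin open to the transposase, and active promoters usually carry one. Of the 5 genes, only Grin1 had a peak within 1000 bp of its start, and it had it in all 6 libraries. That region, chr2:25318775-25319412, covers the gene start and most of the CpG-rich window printed above. The fold enrichment of its strongest peak was 7.06 and 7.73 in WT, 5.58 and 6.42 for Mut18, and 7.02 and 8.87 for Mut43, so the genotypes overlapped. Tex40, Pnma5, Lgals9 and Fam25c had no peak within 1000 bp of the start in any WT or mutant library. Over 13935 tested genes with a place in the annotation, 81.2% had such a peak in every library and 10.8% in none. Among the 452 placed genes called higher in the mutants these shares were 43.8% and 39.6%. The nearest region to the start was 3124 bp away for Tex40, at the promoter of its neighbour Esrra, 16792 bp for Pnma5, 6286 bp for Lgals9 (in an intron) and 4377 bp for Fam25c.

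Merging the peaks of the 6 libraries gave 27 regions within 20 kb of the 5 gene bodies, 5 at Tex40, 1 at Pnma5, 8 at Grin1, 7 at Lgals9 and 6 at Fam25c. Of these, 18 (66.7%) had a peak in every library, against 54.7% of all 89596 regions. None had peaks in both WT libraries and in no mutant library, against 3.25% of all regions, and none had peaks in all 4 mutant libraries and in no WT library, against 0.733%. The number of peaks near the 5 genes was 24 and 25 in WT, 21 and 25 for Mut18, and 20 and 22 for Mut43, a mean difference of -2.5 peaks (exact permutation test, two-sided, p = 0.333, n = 2 and 4). The 15 possible splits allow no p below 0.0667. The lists themselves held 78536 and 67416 peaks in WT and 63588 to 69811 in the mutants. They carry no read numbers, so the depth behind a missing peak is unknown.

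**Figure D3:**
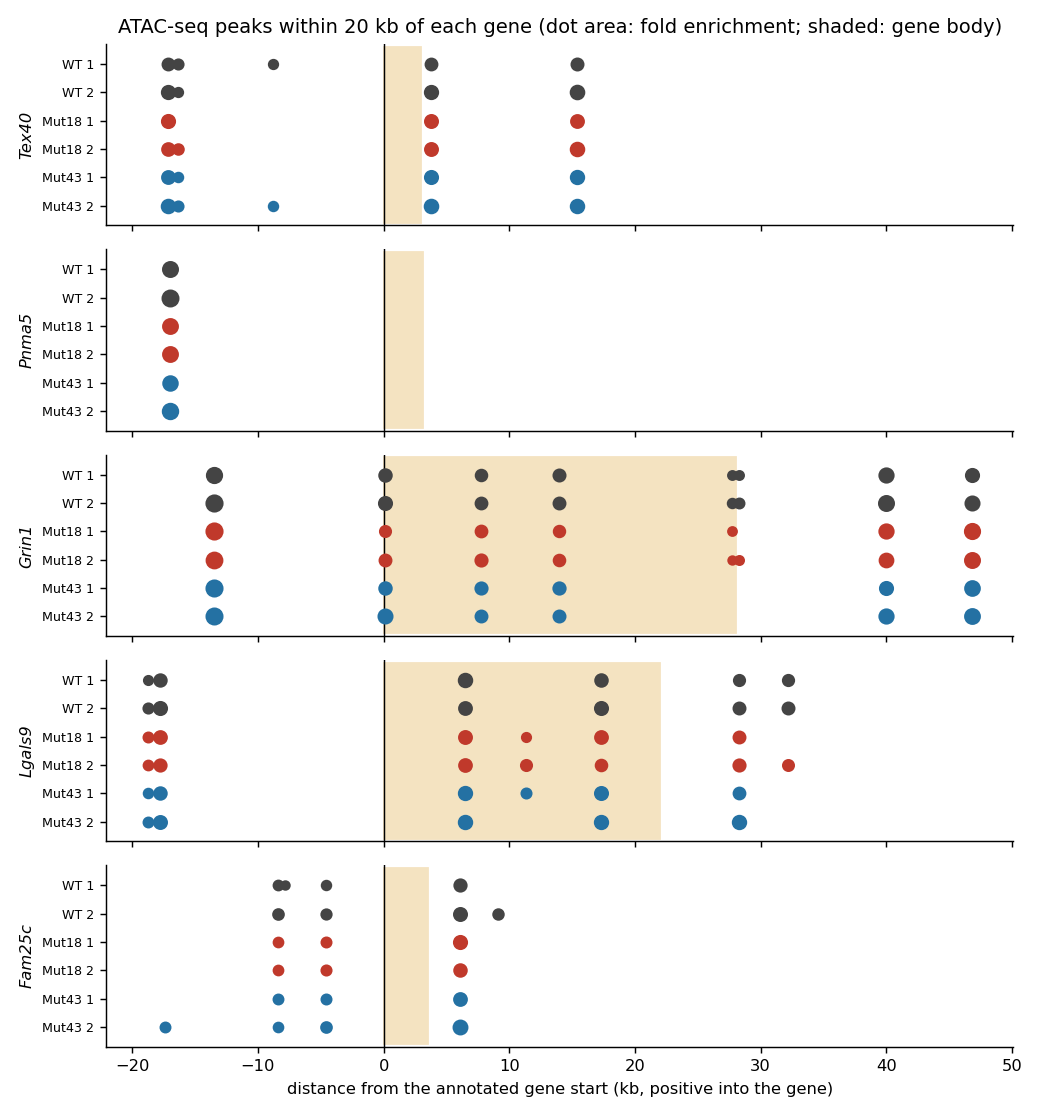
Peaks within 20 kb of each gene in each ATAC-seq library, by distance from the annotated gene start in kb (positive into the gene). Dot area is the fold enrichment, and the shaded band is the gene body. Grin1 alone has dots at its start, in all 6 libraries, and most columns of dots run through WT, Mut18 and Mut43 alike.

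The single region near Pnma5, at chrX:73053895-73054380, lies upstream of the gene and outside any annotated gene. Its fold enrichment was 10.1 and 11.5 in WT, 9.96 and 9.95 for Mut18, and 9.45 and 10.6 for Mut43. At Tex40 the strongest regions were the promoters of neighbours, and the Esrra promoter (chr19:6921014-6922256) had fold enrichments of 6.33 and 7.93 in WT and 7.56 to 8.31 in the mutants. At Fam25c the 3 regions found in every library lay at chr14:34349144-34349495, chr14:34359810-34360235 and chr14:34363533-34364149, all outside annotated genes. Fold enrichment was 6.78 and 7.63, 4.07 and 4.78, and 4.39 and 5.17 in WT in that order, against 7.06 to 8.72, 4.55 to 5.19 and 4.26 to 4.48 in the mutants, so the genotypes overlapped at each. The other 3 regions at Fam25c were each found in 1 library only, 2 of them in WT and 1 in Mut43.

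Grin1 had 2 weak regions at or just beyond the 3′ end of the gene with peaks in both WT libraries and in few of the mutant ones. The region chr2:25291312-25291673, which overlaps exons of Grin1 and of its antisense gene Grin1os, had fold enrichments of 3.62 and 4.08 in WT and 3.55 and 3.23 in Mut18, and no peak in either Mut43 library. The region chr2:25290693-25291145, in an exon of Lrrc26, was found in the WT libraries and in Mut18 replicate 2 only. Farther on, the region chr2:25271891-25272885, at the starts of Anapc2 and Ssna1, was found in every library. Its fold enrichments were 7.79 and 8.90 in WT and higher in the mutants, at 9.73 to 10.3. At Lgals9, the region chr11:78952621-78952983, in an exon of Nos2, had fold enrichments of 5.71 and 6.49 in WT and 5.50 in Mut18 replicate 2, and no peak in the other 3 mutant libraries. Peaks in most mutant libraries and in neither WT library were found once, within an intron of Lgals9 at chr11:78973473-78973776, 11170 bp from the gene start. Fold enrichment there was 3.83 and 5.59 in Mut18 and 4.58 in Mut43 replicate 1, with no peak in either WT library or in Mut43 replicate 2. The peaks that were missing from some libraries were weak, and no difference between genotypes at a single region was tested.

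The part of this intronic region that the 3 mutant peaks share is printed because it was the only accessible site near the 5 genes with peaks in most mutant libraries and in no WT library. It lies at chr11:78973607-78973729, 123 bases from GRCm38.p6 read on the minus strand, with its 2 CpGs in capitals. Repeats masked in the reference take up 61.8% of it, and it holds none of the 8 motifs named above.
Lgals9 intron: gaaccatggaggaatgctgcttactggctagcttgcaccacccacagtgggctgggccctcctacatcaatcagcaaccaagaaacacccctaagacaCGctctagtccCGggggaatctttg

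Neighbouring genes were examined for changes shared with the 5 genes. The 3 nearest genes of the count table on each side gave 30 neighbours, of which 27 passed the filter. With edgeR's quasi-likelihood test and a change of more than 2-fold at an adjusted p under 0.05, 4 were called higher, against 3.28% of all genes tested in that direction, and 1 lower, against 5.65%. With no fold threshold 10 were called higher (23.5% of all genes) and 3 lower (24.5%). The 10 include all 5 tested neighbours of Lgals9, on chromosome 11 with its raised median of 0.39, and Kcnk4, which shares exon bases with Tex40. The count of 4 fell to 1 when WT replicate 2 was left out. Among the 4, Kcnk4 (5 and 4 reads in WT), Pnma3 (3 and 4) and Xlr3a (11 and 9) passed the filter only through mutant libraries. The median log2 difference over the 27 was 0.08.

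Kcnk4, a mechanosensitive potassium channel gene that overlaps Tex40 on the same strand, had 4.88 and 3.92 normalized counts in WT, 21.03 and 20.2 for Mut18, and 21.4 and 21.3 for Mut43. Its log2 difference was 2.22 ± 0.39 (SE, edgeR adjusted p = 8.69e-05), and it was called in all 11 alternative fits. The annotated exons of the pair share 587 bases, of 1262 in Tex40, and how reads in shared exons were counted is not given in the sources used here, so Kcnk4 and Tex40 are not independent measurements. On the other side of Tex40, Esrra (estrogen-related receptor alpha), 558 bp away, had 125 and 130.4 normalized counts in WT and 126 to 147 in the mutants, a log2 difference of 0.08 ± 0.11 (SE, edgeR adjusted p = 0.574). Trmt112, Prdx5, Gpr137 and Bad had log2 differences between -0.10 and 0.01, and none was called.

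Around Pnma5, 2 of the 3 genes on its upstream side were called higher, and the next gene downstream was lower by less than 2-fold. Pnma3, of the same Gag-derived family and 27684 bp away, had 2.93 and 3.92 normalized counts in WT, 13.0 and 5.06 for Mut18, and 14.2 and 11.2 for Mut43 (log2 difference 1.63 ± 0.55, SE, edgeR adjusted p = 0.0193). Its adjusted p was 0.121 without WT replicate 1, 0.0595 without WT replicate 2 and 0.0746 by DESeq2. Xlr3a, an X-linked lymphocyte-regulated gene, had 10.7 and 8.82 in WT and 14.2 to 26.5 in the mutants (1.16 ± 0.35, SE, edgeR adjusted p = 0.00988), with an adjusted p of 0.0791 without WT replicate 2. It has near-identical relatives, Xlr3b among them, between which reads could be split. Zfp185, which encodes an actin-associated LIM protein and lies 2438 bp from Pnma5, fell. It had 294 and 329 normalized counts in WT, 185 and 149.7 for Mut18, and 185 and 159 for Mut43 (-0.87 ± 0.10, SE, edgeR adjusted p = 2.96e-07). Nsdhl and Cetn2, farther downstream, had log2 differences of 0.05 and 0.11.

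None of the 4 tested neighbours of Grin1 was called, with log2 differences of 0.14 for Anapc2, -0.02 for Man1b1, 0.03 for Dpp7 and -0.15 for Ssna1. The antisense gene Grin1os, whose exons share 1307 bases with those of Grin1, did not pass the filter. It had 0 counts in both WT libraries, 2 and 7 for Mut18, and 1 and 8 for Mut43, and thus was highest in the libraries in which Grin1 was also higher. The strand setting of the counting is not given in the sources used here, so reads of Grin1 and Grin1os cannot be told apart.

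All 5 tested neighbours of Lgals9 had positive log2 differences, none of them over 2-fold, on a chromosome whose genes had a raised median. Lyrm9 (0.89 ± 0.12) and Ksr1 (0.71 ± 0.12), which encodes a scaffold of the Ras-MAPK pathway, were above that median of 0.39, and Nf1 (0.32), Wsb1 (0.27) and Fam58b (0.24) were below it. Nos2, the inducible nitric oxide synthase gene 2720 bp from Lgals9, did not pass the filter, with 11.7 and 7.84 normalized counts in WT and 3.00 to 9.13 in the mutants.

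Of the neighbours of Fam25c, Mmrn2, which encodes a matrix glycoprotein of blood vessels, had 123 and 88.2 normalized counts in WT and 202 to 236 in the mutants (1.07 ± 0.12, SE, edgeR adjusted p = 4.56e-07). Without WT replicate 2 its log2 difference was 0.86 and under the 2-fold limit. Sncg, which encodes gamma-synuclein and is abundant in neurons and fat cells, was the gene called lower (-1.01 ± 0.37, SE, edgeR adjusted p = 0.0279), but this call rested on WT replicate 1. It had 229 normalized counts there, 36.3 in WT replicate 2 and 57.7 to 75.1 in the mutants, and without WT replicate 1 its log2 difference turned to 0.86 (edgeR adjusted p = 0.00881). Glud1, 6616 bp from Fam25c on its other side, had a log2 difference of -0.00, and Gm3219, Fam35a and Bmpr1a lay between -0.37 and 0.13.

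**Figure D4:**
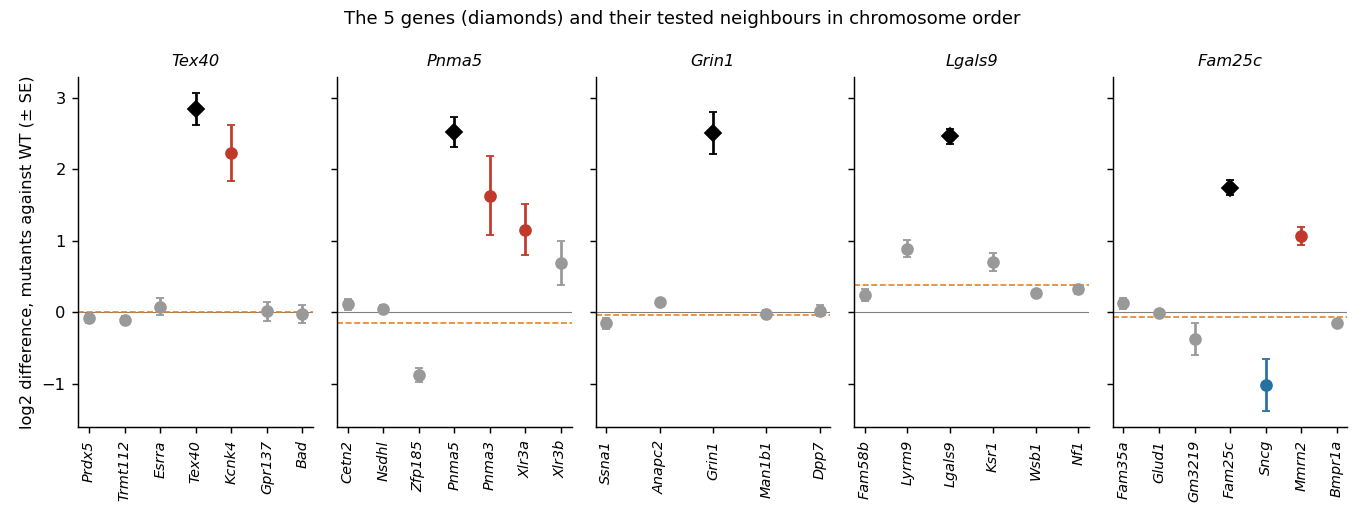
Log2 difference between mutants and WT (± SE) of the 5 genes (black diamonds) and their tested neighbours in chromosome order. Red and blue mark neighbours called higher and lower, grey those not called, and the dashed line is the median of the chromosome. Each diamond stands above all its neighbours, and the closest to one is Kcnk4 (2.22), which overlaps Tex40. The 5 genes were chosen for large rises, so their place above the neighbours is no finding.

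The families of the 5 genes were examined next, leaving out the 5 genes themselves. Over 4 lists, 46 genes were in the table and 32 passed the filter. Of these, 3 were called higher and 2 lower (9.38% and 6.25%), against 3.28% and 5.65% of all tested genes. Pnma3 (3 and 4 reads in WT) and Lgals7 (2 in each WT library) passed the filter only through mutant libraries. Cxx1c, called lower, passed it only through WT (18 and 19 reads). Pnma3 is also among the neighbours above. The shares are therefore a description and no finding about the families. The medians are set beside the median over all tested genes of -0.00.

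Of 12 other CatSper genes, 5 were in the table and 3 were tested, with a median log2 difference of 0.67. Catsperg1, an auxiliary subunit of the channel, had 11.7 and 12.7 normalized counts in WT, 21.03 and 33.4 for Mut18, and 14.2 and 32.5 for Mut43 (1.04 ± 0.36, SE, edgeR adjusted p = 0.0217). That call was lost in 5 of 11 alternative fits, among them those without WT replicate 1 (log2 difference 0.98) and without WT replicate 2 (edgeR adjusted p = 0.0636). Catsperd, another auxiliary subunit, had a log2 difference of 0.67 (edgeR adjusted p = 0.045), and Catsper2, the only pore-forming subunit tested, of -0.21 (adjusted p = 0.546). Efcab9, the calcium sensor that binds CATSPERZ in the sperm channel, did not pass the filter, with 0 counts in WT and 2.02 to 6.01 normalized counts in the mutants.

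Of 20 other Gag-derived genes, 15 were tested, 1 was called higher (Pnma3, above) and 1 lower, with a median log2 difference of -0.31. Cxx1c, an X-linked Gag-derived gene, had 17.6 and 18.6 normalized counts in WT and 3.05 to 9.01 in the mutants (-1.62, edgeR adjusted p = 0.00227). Its close relatives Cxx1a and Cxx1b had log2 differences of -0.55 and -0.63, and reads may be split among the 3 genes. Pnma2 was at -0.41 and Pnma1 at 0.15. Peg10, the most abundant gene of the list with 5654 and 5792 normalized counts in WT, was at 0.25.

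Of 20 genes for other ionotropic glutamate receptor subunits and partners of the NMDA receptor, 8 were tested and 1 was called lower, with a median log2 difference of -0.40. Gria3, an AMPA receptor subunit, had 84.9 and 89.2 normalized counts in WT and 22.3 to 40.5 in the mutants (-1.33, edgeR adjusted p = 1.14e-05). The kainate receptor genes Grik3 and Grik5 were at -0.91 and -0.57. GluN1, the product of Grin1, forms channels only with other NMDA receptor subunits. Of their genes Grin2d was tested, with 36.1 and 43.1 normalized counts in WT and 25.3 to 38.0 in the mutants (-0.24, edgeR adjusted p = 0.401). Grin2a, Grin2b, Grin2c, Grin3a and Grin3b did not pass the filter, and none exceeded 10.7 normalized counts in any library. Dlg3, the most abundant gene of the list, encodes a scaffold of the synapse and was at -0.21, and Srr, which makes the co-agonist D-serine, was at 0.68 (edgeR adjusted p = 0.00132).

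Of 11 other galectins and related genes, 6 were tested, with a median log2 difference of 0.31. Lgals7, a galectin of stratified epithelia, had 1.95 and 1.96 normalized counts in WT, 11.01 and 6.07 for Mut18, and 17.3 and 19.3 for Mut43 (2.70, edgeR adjusted p = 0.00151), from 2 reads in each WT library. Lgals3 was higher by a log2 difference of 0.79 (edgeR adjusted p = 8.06e-08), below 2-fold, and Lgalsl, on chromosome 11, by 0.61. Lgals1, the most abundant galectin, was at -0.29, and Lgals8 at -0.00. Lgals12, a galectin of fat cells, did not pass the filter and had 69.3 normalized counts in WT replicate 1 against 5.01 to 9.16 in the other libraries.

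**Figure D5:**
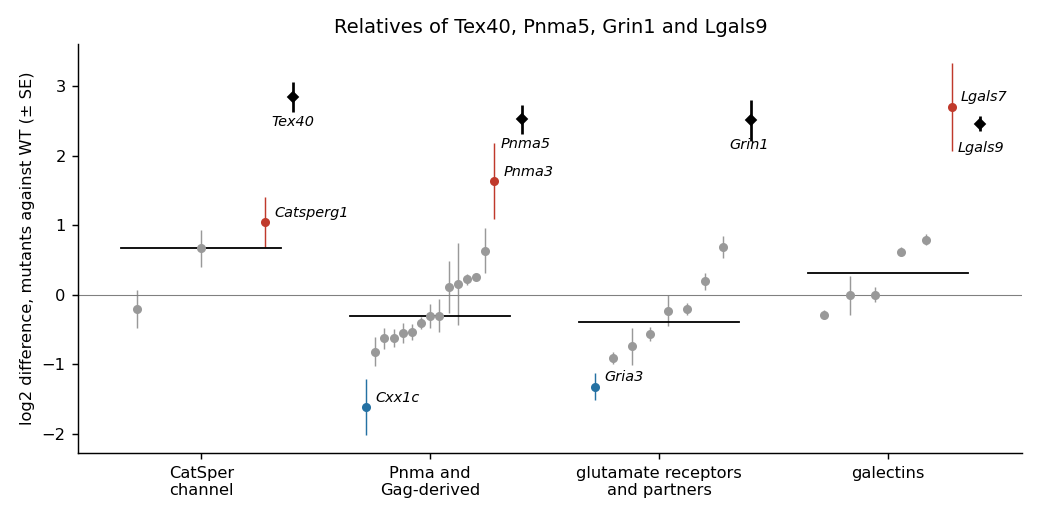
Log2 difference between mutants and WT (± SE) of the tested relatives of Tex40, Pnma5, Grin1 and Lgals9. Red and blue mark genes called higher and lower, grey those not called, black bars the median of each list and diamonds the genes themselves. Medians run from -0.40 to 0.67, and Lgals7 (2.70) is the relative with the highest value.

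Markers of cell types in which these genes are known to be used were also counted. Of 6 tested markers of male germ cells none changed by more than 2-fold, 2 were higher and 2 lower at an adjusted p under 0.05 (edgeR; 23.5% and 24.5% of all tested genes), and their summed level was 74.3 to 76.5 CPM (counts scaled to library depth) in WT and 68.9 to 76.2 in the mutants. Of 11 tested neuronal markers, 3 were called lower (Map2, Snap25 and Syt1), against 5.65% of all tested genes, and 2 without WT replicate 1, with summed levels of 512 to 521 CPM in WT and 471 to 521 in the mutants. At any fold, 3 of the 11 neuronal markers were higher and 7 lower at an adjusted p under 0.05 (edgeR; 23.5% and 24.5% of all tested genes). Of the immune markers, the macrophage gene Cd68 had 139.6 and 149.96 normalized counts in WT and 196 to 225 in the mutants (0.51, edgeR adjusted p = 0.000306). The T cell gene Cd3e (0.80, edgeR adjusted p = 0.0887) and the myeloid gene Itgam (0.55, adjusted p = 0.192) did not pass the test with every library in the fit. Calls of immune markers depend on WT replicate 1, and those without it are not reported here. Ptprc, the general leukocyte marker, Lyz2 and Csf1r did not pass the filter, with 7.81 and 5.88 normalized counts of Ptprc in WT and 1.00 to 2.04 in the mutants. Of 9 tested fibroblast markers, 4 were called lower (Col3a1, Postn, Dcn and Twist1), against 5.65% of all tested genes. Their summed level was 282 CPM in WT replicate 1, 199 in WT replicate 2 and 131 to 174 in the mutants. Without WT replicate 1 the calls of Col3a1 (log2 difference -1.06), Postn (-1.37) and Twist1 (-1.23) held, and that of Dcn was lost (-1.03, edgeR adjusted p = 0.122). The part of these cells in the levels of the 5 genes was not tested, and in bulk libraries a change in the number of cells of a type and a change in RNA per cell cannot be told apart.

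The genes whose pattern over the 6 libraries was most like that of each gene were named by the smallest root mean square difference of centred log2 values, over 11076 genes. For Tex40 these were Gpx2 (difference 0.07), Lgals9 (0.17) and Hormad2 (0.22), and for Lgals9 they were Hormad2 (0.07), Gpx2 (0.15) and Tex40 (0.17). Gpx2, a glutathione peroxidase gene, had a log2 difference of 2.66, and Hormad2, which encodes a protein of meiotic chromosomes, of 2.42. For Pnma5 they were Hormad2 (0.24), Lgals9 (0.25) and Pla2g4e (0.28), and for Grin1 they were Myo1g (0.20), Slc15a1 (0.26) and Krt42 (0.26). For Fam25c they were Tuba3a (0.08), Plac8 (0.10) and Platr14 (0.11), with log2 differences of 1.73, 1.60 and 1.82. Such likeness rests mostly on the step between WT and mutants, which all these genes share.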

How the data were processed

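The mRNA-seq table deposited by the authors holds raw read counts for each gene, as whole numbers, in 2 libraries each of WT, Mut18 and Mut43. The submitters' processing notes name STAR and DESeq2, the study aligned to mm10 joined to dm6, and the counting program, annotation and strand setting are not given in the sources used here. For ATAC-seq the authors deposited peaks per library, named with MACS2, each with a score, a fold enrichment and −log10 p and q values. Reads were aligned with Bowtie2 2.3.4.2. The score and p columns were not used.

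Counts were filtered by edgeR 4.0.16 (minimum count 10, minimum total 15) and scaled by TMM in R 4.3.3. The quasi-likelihood F-test compared 2 WT with 4 mutant libraries, and the clones in a fit with 3 groups, with Benjamini-Hochberg adjustment over 14061 genes. A call needed an adjusted p under 0.05 and, against WT, a change over 2-fold. Symbols were placed on GENCODE M21 (15618 directly, 474 by an older symbol, 171 not placed). Tex40 was placed at Catsperz, since Kcnk4, for which RefSeq also lists that older name, has a row of its own. Peaks that overlapped by at least 1 bp were merged into regions with Python 3.11.15 and pandas 2.3.3, and all 5 promoters matched RefSeq's GRCm38.p6 table by symbol. The fits were tested on simulated data. Depth was nearly equal among the mRNA-seq libraries. The p-values of mutants against WT measure the spread between libraries of a genotype, which mixes duplicates with clones in the mutants. Those between the clones measure the spread between biological duplicates. The number of WT libraries limits the precision.

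The members, gene lists, markers and rules were chosen with earlier results of these data known. The text names the 5 genes, their neighbours in the table, the 3 most alike genes, and of each list the called genes, the most abundant gene and a few further members given for their role, which were chosen after their values were seen. Alternatives were DESeq2 1.42.0, other scalings, no filter, a replicate term, each library left out, other windows, thresholds and numbers of neighbours. The ChIP-seq samples were not analysed here, and the count and sum of the immune marker list are not reported here, since a member of it is left out.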

Additional observations from a re-analysis of the deposited data

Results flagged for a closer look

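Xlr3b, a neighbour of Pnma5, had 1 mutant library far from the other 3. Its normalized counts were 20.02 and 22.3 in Mut18 and 34.6 and 21.3 in Mut43, and the gap of the highest library to the next was 0.847 of the whole range, above Dixon's critical value at 95% for 4 samples. At that limit chance flags about 1 group in every 20, and 32 such groups of mutant libraries were looked at. A single flagged group is therefore no finding.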

How the results depend on the processing

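The log2 differences of the 5 genes kept their direction under every alternative run, and their median lay between 2.42 and 2.57 with each library left out. After subtracting the chromosome's median, that of Lgals9 was 2.07.

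Replicate numbers are shared by the lines, but same-numbered libraries did not deviate together (r of -0.05, 0.00 and -0.03 over 11076 genes), so they do not pair the samples. With the replicate block, 1 of the 5 genes differed between the clones where 0 did before (Pnma5, -0.53, edgeR adjusted p = 0.0372), and 0 neighbours were called lower. The adjusted p of Pnma5 between the clones ranged from 0.0155 to 0.747 over the alternatives. With each library left out, 0 to 1 of the 5 genes differed between clones, the log2 difference of Pnma5 lying between -0.69 and -0.39. DESeq2 gave no adjusted p between the clones for Tex40, Pnma5, Grin1 and Lgals9.

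The 4 neighbours called higher became 10 with no fold threshold, 2 with 1 neighbour on each side and 1 to 4 with a library left out. The 1 called lower became 0 by DESeq2 and after subtracting the chromosome's median, 3 with no fold threshold, 3 with 5 neighbours on each side, and 0 to 1 with a library left out. The relatives called higher fell from 3 to 1 by DESeq2 and were 1 to 3 with a library left out, and 2 to 3 were called lower. The cause was not tested.

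For ATAC-seq, regions with peaks in both WT libraries and in no mutant library numbered 1 at a −log10 q of at least 10 and 0 to 2 with a library left out, and those in all mutant libraries only 0 to 1. Regions in every library numbered 10 within 10 kb, 36 within 50 kb and 18 to 19 with a library left out. The mean difference in peaks per library lay between -3.5 and -1.83 with a library left out. The lists give no depth, which limits what a missing peak can show.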
